A study of Mus musculus with 31 samples.

Results

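Dcn, Calb2, Clec18a, Trh, Fam180a, Tnnc1 and Nrgn are 7 of the 24657 gene names listed in the RNA tables of a study of mouse neural stem cells. They were picked from measured values, as genes whose levels stood much higher in cultures given the transcription factor Egr1 than in control cultures. Their levels in culture are therefore given as a description, with no test. The same 7 genes were then followed in sorted hippocampal cells, which the choice did not use and where the differences were tested.

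Egr1 is an immediate early zinc finger factor that is switched on by growth factors and by neuronal activity and binds a GC-rich DNA sequence. It is held in check by the corepressors Nab1 and Nab2, of which it can itself switch on Nab2. The 7 genes belong to unlike classes. Dcn encodes decorin, a small proteoglycan secreted mostly by fibroblasts that binds collagen and transforming growth factor beta. Trh encodes the precursor of the peptide thyrotropin-releasing hormone, and Clec18a encodes a secreted protein with C-type lectin and CAP domains. Calb2 encodes calretinin and Tnnc1 the troponin C of slow and cardiac muscle, both calcium-binding proteins with EF-hands, while Nrgn encodes neurogranin, a calmodulin-binding protein of forebrain neurons. In the dentate gyrus calretinin is a familiar marker of newborn granule neurons and is also found in mossy cells and interneurons, and neurogranin is known from mature granule neurons. Fam180a encodes a little-studied protein.

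The 31 samples listed include 21 RNA libraries, 3 in each of 7 groups, and only these were used here. For 5 groups the source was the dentate gyrus of mice on a C57BL/6 background that carry Nestin-EGFP, in which the Nestin promoter drives a green fluorescent protein in neural stem cells and their near offspring, and cells with green fluorescence were sorted. On each of postnatal days 7, 8 and 9 the mice had been injected with water (Control) or with midazolam (MDZ, a benzodiazepine sedative, 10 mg/kg). Sorting took place at postnatal day 10 (Control P10, MDZ P10) or in week 8 (MDZ 8w, Control 8w, and RUN MDZ 8w for midazolam mice housed with a running wheel). The remaining 2 groups are neural stem cells of wild-type ICR mice, grown from cortex at embryonic day 11 and kept for over 20 passages in basic fibroblast growth factor and epidermal growth factor (20 ng/ml each). All cultures carried a lentivirus for the transactivator M2rtTA, alone (Control culture) or together with one for Flag-tagged Egr1 (Egr1 culture). Each P10 library used 50000 cells of a single mouse, and each library at 8 weeks used roughly 30000 cells of 3 to 5 pooled mice. The sources used here do not give the promoter of the Egr1 virus, the use of an inducer or whether the 3 cultures of a group were grown separately, so the spread in culture may be technical.

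The P10 libraries are in FPKM (fragments scaled by gene length and library size) and the 8-week and culture libraries in TPM (transcripts as a share of the library), so levels were compared only within an age or within culture. Control 8w replicates 2 and 3 shared 97.4% of detected genes, more than any other pair of the same group, against 78.4% and 77.8% with replicate 1. The spread of log2 ratios between them, for genes at 20 to 50 TPM, was 0.265, below that of the other 8-week pairs (0.342 or more) but above that of the pairs at P10 and in culture (0.170 or less). They were averaged and counted as 1 sample, leaving 2 Control 8w samples, and results that change when they are kept apart are given. The Control 8w libraries list 11163 to 11397 genes above 0, the other 8-week libraries 15382 to 16709, so a 0 in Control 8w is common: of the 1861 genes at 10 to 20 TPM in MDZ 8w, 13.1% are at 0 in all 3 Control 8w libraries. Radial glia markers were present in the sorted cells and the cultures alike, with 11 or 12 of 12 at 1 or above in all libraries of each sorted group and 9 or 10 of 12 in each culture group. Prom1 and Lpar1 stayed under 1 TPM in every culture library. Egr1 itself was at 285 to 361 TPM in the Control cultures and 1291 to 1769 TPM in the Egr1 cultures, a difference of 2.16 ± 0.13 (SE) on log2(TPM + 1) with an adjusted p of 4.0e-06 by limma, and reads of the virus and of the cells' own gene cannot be told apart.

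In culture all 7 genes were higher in each Egr1 library than in any Control library, from 12.4-fold for the mean of Nrgn to 1124-fold for that of Dcn. The groups did not overlap in the higher direction for 18.4% of the 12402 genes tested, and 15.2% passed the test as higher, so a lack of overlap was common in this comparison and fixed for these genes by their choice. By the difference on log2(TPM + 1), Dcn was the 1st of all genes, Calb2, Clec18a, Trh, Fam180a and Tnnc1 the 3rd to 7th, and Nrgn the 27th.

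Dcn was at 0.149, 0.0766 and 0.161 TPM in the Control cultures and at 158, 123 and 154 TPM in the Egr1 cultures. The secreted proteoglycan thus went from nearly no reads to a level close to that of Sox2, a stem cell factor, which was at 116 to 134 TPM in the same Egr1 libraries. Its difference was 7.01 ± 0.11 (SE, n = 3 against 3). Clec18a, the secreted lectin, was at 0.661, 0.226 and 0.238 TPM against 92.8, 79.6 and 81.1 TPM, a difference of 5.97 ± 0.14. Trh, the hormone precursor, was at 0.301, 0 and 0.108 TPM against 72.2, 70.0 and 66.7 TPM, a difference of 5.97 ± 0.12. Its 3 Egr1 libraries lay closest together of all 7 genes relative to their mean (69.6 ± 2.80 TPM, SD).

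Fam180a was at 0.0896, 0.0920 and 0 TPM in the Control cultures and at 41.0, 35.9 and 41.6 TPM in the Egr1 cultures, a difference of 5.25 ± 0.11 (SE). It was the lowest of the 7 in both groups. An RNA gene, Gm38788, lies within the span of Fam180a, and whether strand was used in counting is not given, so some of these reads could belong to it.

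Among the calcium and calmodulin genes the starting levels were higher. Calb2 was at 1.35, 0.894 and 1.15 TPM in the Control cultures and at 163, 135 and 132 TPM in the Egr1 cultures, a difference of 6.08 ± 0.12 (SE). Tnnc1 was at 1.42, 1.95 and 1.02 TPM against 83.4, 76.9 and 94.9 TPM, a difference of 5.14 ± 0.14. Nrgn was at 35.5, 31.8 and 33.5 TPM against 464, 414 and 375 TPM, a difference of 3.59 ± 0.08. Nrgn differs from the other 6 in being well expressed before Egr1 was added. Its 12.4-fold ratio of means was the smallest of the 7, but the amount added, 384 TPM, was the largest, and the 21st largest of all genes.

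**Figure D1:**
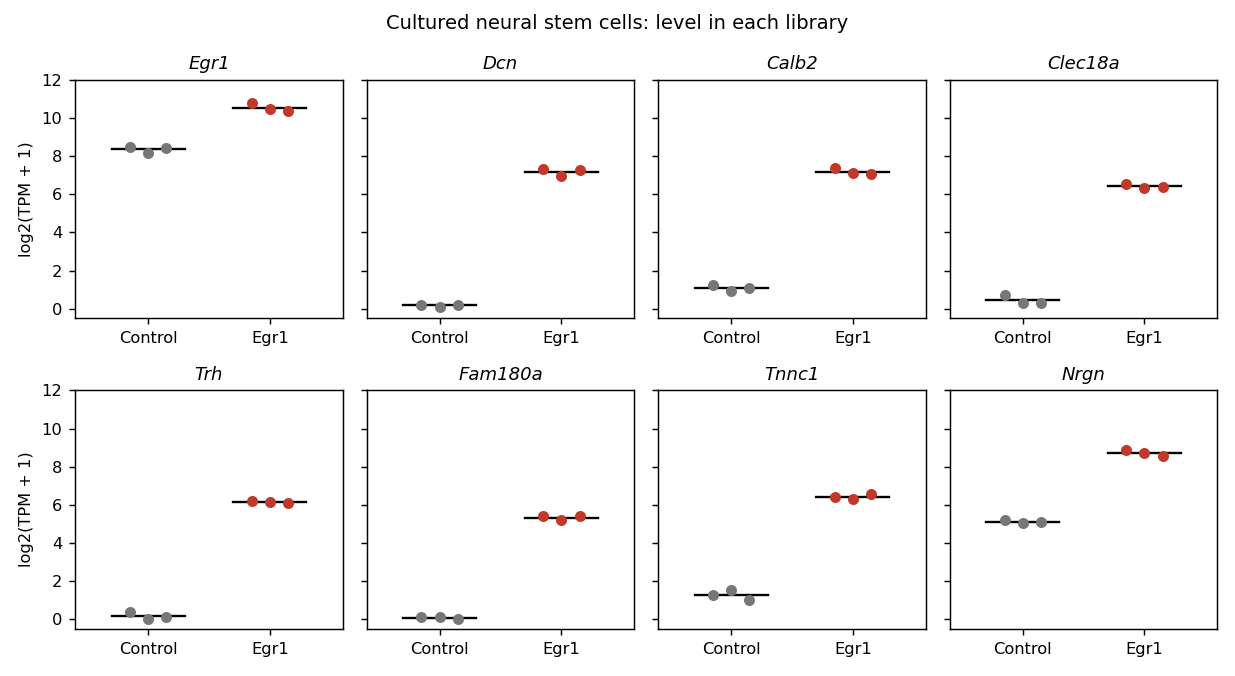
Level of Egr1 and of the 7 genes in each of the 6 culture libraries, as log2(TPM + 1); grey points are Control cultures, red points Egr1 cultures, and black lines the mean of 3 libraries. In all 8 panels the red points lie above the grey points; Nrgn (33.6 TPM on average) is the only one of the 7 genes with a mean above 2 TPM in the Control cultures.

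The precision of these ratios is set by the Control cultures. Low values in culture fall on steps of whole fragments. The smallest whole numbers that fit the Control values to within 0.01 fragment were taken as counts. They are 2, 1 and 2 fragments for Dcn, 3, 1 and 1 for Clec18a, and 3, 0 and 1 for Trh. For Fam180a they are 1, 1 and 0, for Tnnc1 3, 4 and 2, and for Calb2 14, 9 and 11. At these steps Egr1 values of Clec18a (358.7 and 379.3) and Tnnc1 (206.5) fall between whole numbers. The Control counts of Clec18a and Tnnc1 are therefore lower bounds, and their intervals below are too wide. From the summed fragments the ratio between Egr1 and Control cultures was 1126 for Dcn, with a 95% counting interval of 482 to 3470. The interval ran from 177 to 5288 for Fam180a, from 196 to 1844 for Trh, from 94.9 to 685 for Clec18a, from 90.3 to 183 for Calb2 and from 30.3 to 127 for Tnnc1. The intervals of Dcn, Fam180a and Trh overlap, so the order of these genes by ratio is not resolved. The interval of Dcn lies wholly above those of Calb2 and Tnnc1. The place of Clec18a is not read, since its interval rests on a lower bound of its Control counts. All intervals cover counting error only, and reads from the same amplified molecule are not independent.

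Levels within the Egr1 cultures also had an order. Nrgn was highest at 418 ± 44.5 TPM (SD, n = 3), followed by Dcn at 145 ± 19.1 and Calb2 at 143.5 ± 16.8, which did not differ beyond their spread. Tnnc1 at 85.1 ± 9.14 and Clec18a at 84.5 ± 7.23 TPM did not differ beyond their spread either, and Trh and Fam180a followed at 69.6 ± 2.80 and 39.5 ± 3.13 TPM.

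The values just outside the choice show where it was drawn. Snord47, a small nucleolar RNA, was 2nd by difference but erratic, at 0, 0 and 264 TPM against 267, 535 and 950 TPM. S100a3, another EF-hand gene, was 8th with a difference of 5.10, next to Tnnc1, and Klk10 and Mcam followed at 5.02 and 4.61. Around Nrgn, the genes directly above it were Mgp and Nid1 (3.69 and 3.63) and those directly below Areg and Rprml (3.59 and 3.55). The plot of every gene in culture places 6 of the 7 genes at its upper left, near 0 in the Control cultures.

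**Figure D2:**
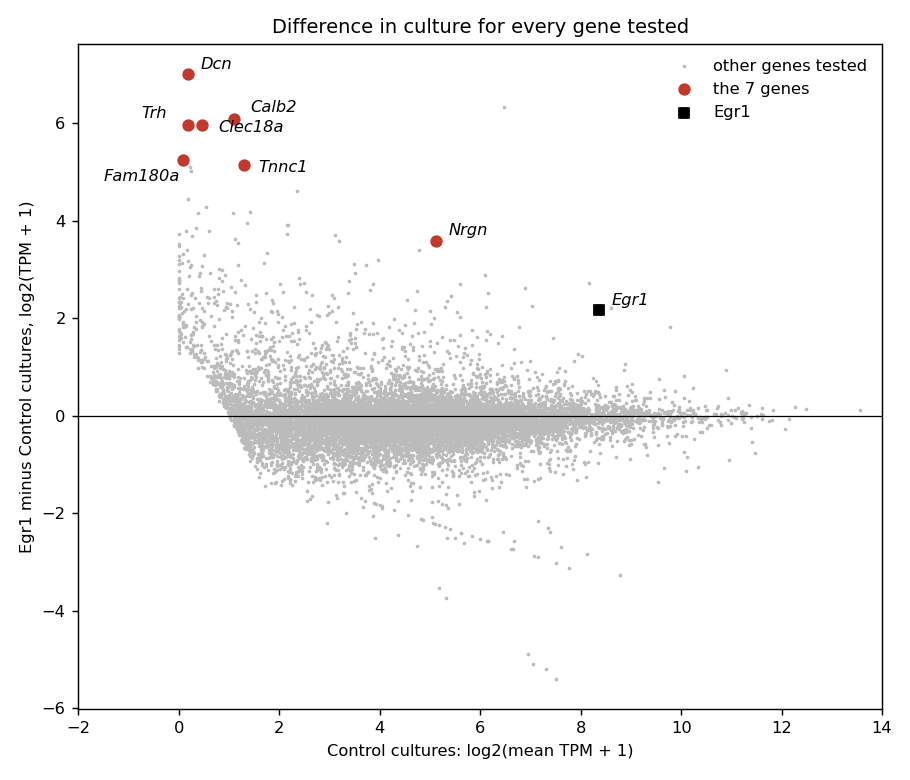
Each point is 1 of the 12402 genes tested in culture; the horizontal axis is the log2 of the mean Control culture TPM plus 1 and the vertical axis the difference between Egr1 and Control cultures on log2(TPM + 1). Of the 7 genes (red), 6 sit at the upper left with differences from 5.14 to 7.01, Nrgn lies apart at a higher Control level with 3.59, and Egr1 is the black square at 2.16.

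Markers of the cell types that these genes are known from were low in the cultures. The 10 fibroblast markers summed to 13.5 to 18.8 TPM in the Control cultures and to 7.13 to 9.23 TPM in the Egr1 cultures. Col6a1, from 8.83 to 13.4 TPM down to 2.20 to 2.60 TPM, made up most of that fall, and Col6a2 and Slc6a13 were lower too. Other members were, like Dcn, higher in each Egr1 library. Col1a1 was at 0.0855 to 0.244 against 0.512 to 1.19 TPM, and Pdgfra at 1.59 to 1.81 against 2.37 to 3.38 TPM. Col1a2 was at 0 in all 6 libraries, Lum was at 0 in 5 of them and Col3a1 was at or under 0.0228 TPM, whereas Dcn, which fibroblasts make along with these collagens, was at 123 TPM or more in the Egr1 cultures. For the neuronal genes, the 12 neuroblast markers summed to 107 to 125 TPM against 128 to 155 TPM, higher in each Egr1 library, as Calb2 was. In each culture group 5 of the 12 were at 1 TPM or above in all libraries. Neurod2 was at 0 throughout and Dcx at no more than 0.123 TPM, while Calb2 was at 132 TPM or more in the Egr1 cultures. The 13 mature neuron markers summed to 108 to 120 TPM against 99.1 to 122 TPM, and the groups overlapped. Dlg4 and Gria2 made up most of that sum, and some low members were higher in each Egr1 library, as Nrgn was. Snap25 was at 0.124 to 0.134 TPM against 3.43 to 5.47 TPM, Syt1 at 1.10 to 1.36 against 8.29 to 12.1 TPM, and Slc17a7 at 0.694 to 0.758 against 1.72 to 2.45 TPM. The 10 pericyte and smooth muscle markers, low throughout, were at 7.19 to 9.59 TPM against 15.3 to 23.5 TPM. Acta2 alone carried that rise, with means of 2.87 and 16.3 TPM. The means of Tagln (2.37 and 2.35 TPM), Myh11 (0.354 and 0.264 TPM) and Cspg4 (2.37 and 1.28 TPM) did not rise. Radial glia markers summed to 5686 to 6143 TPM against 5016 to 5264 TPM. The 7 oligodendrocyte precursor markers went from 1658 to 1756 TPM down to 876 to 1017 TPM, and the 8 mature oligodendrocyte markers from 97.2 to 107 TPM up to 202 to 209 TPM. The part of these shifts in the levels of the 7 genes was not tested.

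Promoter sequence was examined as a property that the choice did not use. RefSeq promoter windows on GRCm38.p6, from 250 bases before to 50 after the start of a gene, were at hand for 5 of the 7 genes (Clec18a, Trh, Fam180a, Tnnc1 and Nrgn), and Dcn and Calb2 were not examined. The window of Clec18a belongs to a start inside the span of the gene, with its upstream bases at chr8:111081709-111081958, and the other 4 windows lie at the outer end of their genes. The consensus Egr1 site GCGNGGGCG, searched on both strands, is in 0 of the 5 windows and in 5.55% of all 32851 windows. A looser form, GNGNGGGNG, is in 3 of the 5 (Trh, Tnnc1 and Nrgn) and in 39.6% of all windows. The GC box GGGCGG, which Sp factors bind, is in 2 of the 5 (Trh and Nrgn) and in 35.7% of all windows, and 1 of the 7 looser matches in the Nrgn window touches a GC box. The 250 upstream bases of the 3 genes with a looser match are shown 5′ to 3′ on the strand of the gene, to let the matches be compared, with the bases of looser matches in capitals: Trh at chr6:92244651-92244900 (minus strand), Tnnc1 at chr14:31208062-31208311 (plus strand) and Nrgn at chr9:37552746-37552995 (minus strand).
Trh: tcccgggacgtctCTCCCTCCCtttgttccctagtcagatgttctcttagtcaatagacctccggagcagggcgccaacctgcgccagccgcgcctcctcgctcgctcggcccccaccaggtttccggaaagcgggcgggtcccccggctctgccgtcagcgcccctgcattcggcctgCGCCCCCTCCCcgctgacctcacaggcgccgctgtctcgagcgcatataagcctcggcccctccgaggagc
Tnnc1: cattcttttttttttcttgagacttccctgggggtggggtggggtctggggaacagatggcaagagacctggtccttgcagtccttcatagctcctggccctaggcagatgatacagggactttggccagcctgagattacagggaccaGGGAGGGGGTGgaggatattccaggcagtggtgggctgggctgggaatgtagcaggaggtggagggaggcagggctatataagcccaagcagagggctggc
Nrgn: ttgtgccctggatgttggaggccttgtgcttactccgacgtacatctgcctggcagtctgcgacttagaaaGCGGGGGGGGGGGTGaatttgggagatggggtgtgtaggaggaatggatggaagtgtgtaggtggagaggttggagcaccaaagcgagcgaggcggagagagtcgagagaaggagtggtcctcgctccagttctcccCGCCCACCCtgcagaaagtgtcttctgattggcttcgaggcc

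The 3 promoters are unlike each other. The Trh window has 28 CpG pairs and a GC content of 67.0%, and 2 of its 3 looser matches overlap, at positions -71 to -61 from the start. The Nrgn window has 17 CpG pairs, and 5 of its 7 looser matches overlap in 1 G-rich run at positions -179 to -165. The Tnnc1 window has 1 CpG pair, fewer than most windows (5.43% have fewer). The letters TATAA, searched on both strands after the sequences had been read, are in 3 of the 5 windows and in 24.9% of all windows. They occur on the gene's strand at positions -26 to -22 of Trh and -24 to -20 of Tnnc1, and on the other strand at positions -90 to -86 of Fam180a. A match is a description of the letters, and a missing match says only that the letters are not in the window.

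The loci lie on 5 chromosomes (GRCm38.p6): Dcn at chr10:97479500-97518163, Calb2 at chr8:110142526-110168212, Clec18a at chr8:111069496-111092424, Trh at chr6:92242061-92244650, Fam180a at chr6:35312743-35326141, Tnnc1 at chr14:31208312-31211729 and Nrgn at chr9:37544493-37552745. Calb2 shares a chromosome with Clec18a, and Trh with Fam180a. No other gene of the RefSeq table overlaps these spans apart from the one within Fam180a.

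The families and partners of the 7 genes did not move as a block in culture. Over all 12402 genes tested, 1888 rose and 3598 fell at an adjusted p below 0.05 by limma (44.2% called), with a median difference of -0.10. Scaling by median of ratios put that median at 0.0053 and the split at 2776 rising and 2721 falling. Of the small leucine-rich proteoglycans, the family of Dcn, only 2 of 13 were high enough to test, and 1 of them, Ecm2, fell (-0.78). Of 8 tested growth factors, receptors and matrix proteins that decorin binds, 2 rose and 2 fell: the matrix protein gene Tnc (0.90) and Tgfb3 (0.43) rose, and the receptor gene Kdr (-2.19) and Tgfb1 (-0.78) fell. The median of the 8 was 0.0033.

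Other EF-hand genes of neurons and glia, the class of Calb2, rose in 6 and fell in 2 of 12 tested, with a median of 0.18, led by Necab3 (3.97 ± 0.259 against 0.384 ± 0.0882 TPM, SD, n = 3 each) and S100a6. Their increases were 1.85 and 1.10. In the calmodulin group of Nrgn 4 of 13 rose and 5 fell (median -0.18). Gap43, whose protein binds calmodulin through the same kind of motif as neurogranin, fell from 746 ± 13.0 to 290 ± 17.2 TPM, a difference of -1.36, and Camk2b rose by 0.90.

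Of the troponin and sarcomere genes 2 of 10 rose and 4 fell (median -0.10). Tnni1, the inhibitory troponin subunit of slow muscle, rose from 1.27 ± 0.132 to 18.4 ± 1.59 TPM (SD, n = 3), a difference of 3.09, and the cardiac actin gene Actc1 rose by 0.65.

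For Trh, 2 of 5 tested neuropeptide and granin genes rose and 1 fell (median 0.45). These were Pdyn, the dynorphin precursor (1.87), and Chga, a granin of secretory vesicles (1.63), while Scg3 fell (-0.88). Of 5 genes that process, degrade or receive the Trh peptide, Qpct, which forms the peptide's ring-shaped first residue, rose by 0.25 and Pcsk1n, an inhibitor of a precursor-cutting enzyme, fell (-0.71; median -0.09). The Qpct call was lost with no filter on low values (adjusted p 0.0521 by limma) and with a replicate block (0.0758). It was also lost without any 1 culture library other than Control culture replicate 3 (0.0673 to 0.120). Among genes of the lectin and CAP families, 1 of 7 rose, Clec11a (1.20), and 2 fell (median -0.31).

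The Egr family and textbook Egr1 targets give the setting. Egr2, Egr3 and Egr4 fell (-1.09, -1.11 and -0.58), and the other 2 of the 5 genes of the Egr and Nab group did not pass the test. Of 24 tested genes widely described as Egr1 targets, 6 rose and 6 fell, with a median of -0.0091, against 15.2% and 29% of all genes. Pdgfb (2.41) and Gadd45a (1.68) rose most.

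In cells sorted a day after the last midazolam injection, none of the 7 genes was called, and 4 were at or below 0.575 FPKM in every library. Only Dcn, Calb2 and Nrgn had a mean of 1 FPKM or more and were tested. None of the 3 was called by limma and none had an unadjusted p under 0.05, in a comparison in which 0.00774% of 12914 genes were called. Egr1 was at 178, 150 and 187 FPKM in Control P10 and at 289, 269 and 231 FPKM in MDZ P10. All 3 midazolam libraries were higher, by 0.62 ± 0.11 (SE) on log2(FPKM + 1), with an adjusted p of 0.206 by limma. In bulk libraries fewer cells of a type and less RNA per cell cannot be told apart.

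Calb2 was the highest of the 7 by far in these cells, at 72.2, 63.2 and 74.5 FPKM in Control P10 and 64.8, 56.0 and 70.0 FPKM in MDZ P10. The groups overlapped (-0.14 ± 0.09, adjusted p 0.585 by limma). Nrgn was at 2.49, 4.35 and 3.01 FPKM against 4.85, 3.97 and 3.68 FPKM, also overlapping (0.29 ± 0.16, adjusted p 0.496 by limma). Dcn was at 1.49, 3.80 and 3.30 FPKM against 1.31, 0.957 and 2.57 FPKM. Its midazolam libraries held the lowest values but overlapped with Control P10 replicate 1 (-0.56 ± 0.28, adjusted p 0.467 by limma), and its direction was opposite to that in the Egr1 cultures.

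Of the 10 fibroblast markers 9 had, like Dcn, a lower mean in MDZ P10. Col3a1 was at 8.33, 12.1 and 12.9 FPKM in Control P10 and at 3.77, 3.77 and 8.14 FPKM in MDZ P10, and Lum at 0.750, 1.57 and 1.36 against 0.376, 0.496 and 0.813 FPKM. As for Dcn, replicate 1 was the lowest Control library and replicate 3 the highest midazolam library. Pdgfra, the most abundant of the 10, went the other way, with means of 112 and 141 FPKM. The sum of all 10 was 136 to 220 FPKM against 166 to 191 FPKM and overlapped. The part of fibroblasts in the Dcn values was not tested.

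Of the 4 genes under the filter, Trh was higher in each midazolam library (0.406, 0.312 and 0.286 FPKM) than in any Control library (0.254, 0.133 and 0.270 FPKM). The means were 0.335 ± 0.063 and 0.219 ± 0.075 FPKM (SD, n = 3), and the two-sided exact permutation p was 0.1, the smallest that 3 against 3 allows. A lack of overlap in that direction occurred in 9.72% of genes above 0. As the smallest whole numbers that fit, the values stand for 31, 26 and 30 fragments against 19, 8 and 23, in libraries of unequal depth. Fam180a was at 0.242, 0.438 and 0.575 FPKM in Control P10 and 0.214, 0.120 and 0.345 FPKM in MDZ P10, with overlap. Tnnc1 (0.0657 to 0.255 against 0.0709 to 0.309 FPKM) and Clec18a (0.0204 to 0.127 against 0 to 0.0598 FPKM) overlapped too. Counted the same way, they had at most 12 and 10 fragments in a library.

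**Figure D3:**
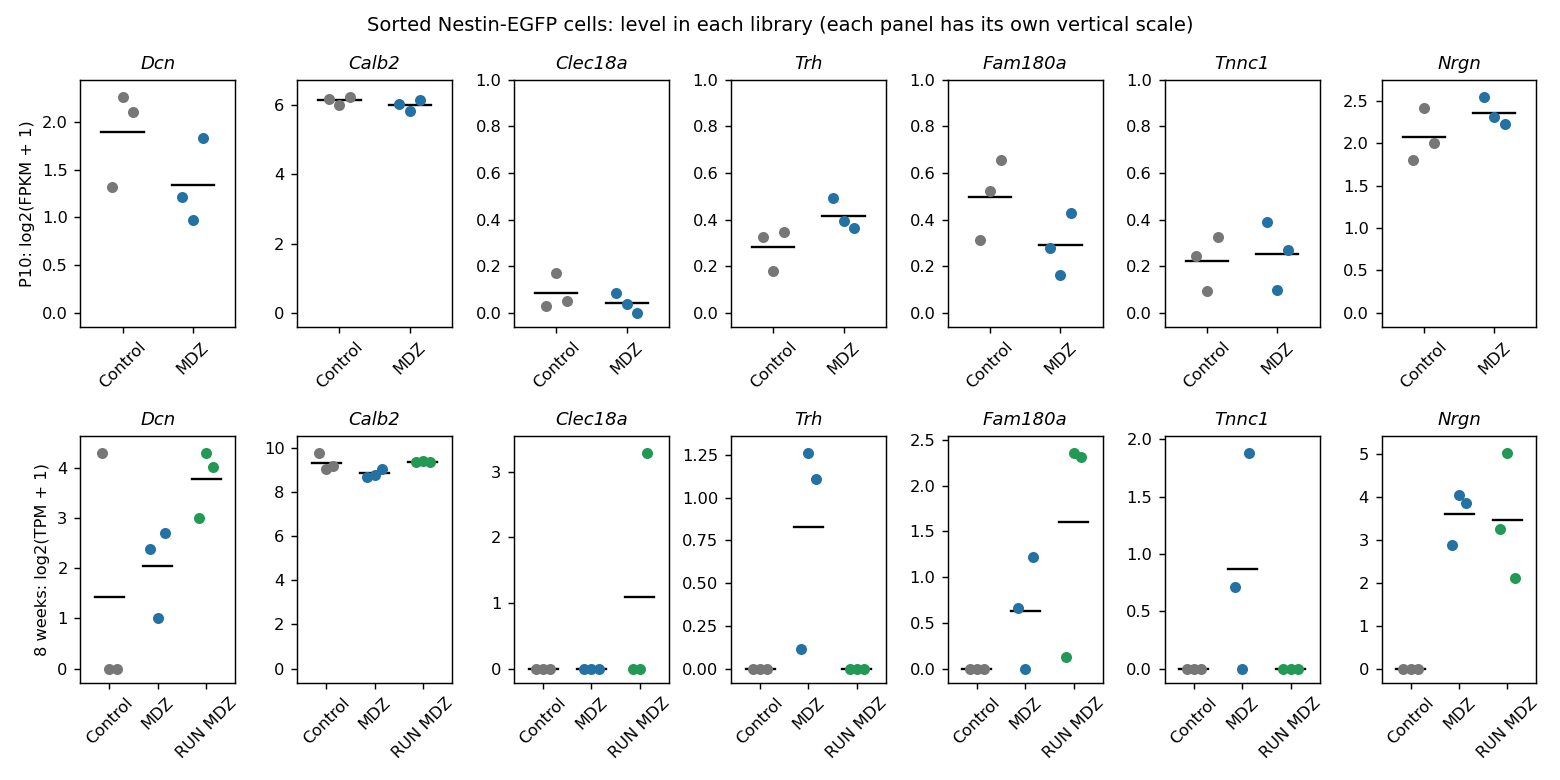
Level of each of the 7 genes in every library of sorted cells, at P10 as log2(FPKM + 1) in the upper row and at 8 weeks as log2(TPM + 1) in the lower row; grey is Control, blue MDZ and green RUN MDZ, black lines are means of the 3 libraries drawn, and each panel has its own scale. Calb2 is far above the other 6 genes at both ages, Trh at P10 is higher in all 3 midazolam libraries, and Nrgn at 8 weeks is at 0 in the 3 Control libraries.

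At 8 weeks 5 of the 7 genes were tested, and 1 of them, Nrgn, passed the test in 1 of the 3 comparisons. Egr1 was at 2231 to 2706 TPM in Control 8w, 1881 to 2692 TPM in MDZ 8w and 1705 to 2032 TPM in RUN MDZ 8w. These values lay above those of the Egr1 cultures or within their range, in tables that were normalized separately, and none of the 3 differences passed the test (adjusted p from 0.222 to 0.816 by limma). Dcn, Calb2, Clec18a, Fam180a and Nrgn had a mean of 1 TPM or more over the 8-week samples and were tested. Clec18a passed that filter through a single RUN MDZ 8w library and Fam180a mainly through RUN MDZ 8w. Nrgn, at 0 in Control 8w, passed it only through the midazolam groups, where it was higher. Nothing is therefore read from the number of the 7 genes called among those tested, the Nrgn call included. The 3 comparisons share samples and are not independent of each other.

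Nrgn was listed at 0 TPM in all 3 Control 8w libraries, at 6.41, 15.7 and 13.7 TPM in MDZ 8w, and at 8.54, 31.9 and 3.33 TPM in RUN MDZ 8w. Every library of the midazolam groups was thus above every Control library, and no fold can be given against 0. Such a lack of overlap in the higher direction occurred in 27.8% of the genes tested for MDZ 8w and in 24.4% for RUN MDZ 8w. Between RUN MDZ 8w and Control 8w Nrgn was called as higher (adjusted p 0.0448 by limma), 1 of 5 genes tested, where 11.3% of all 15264 genes were called, 9.41% as higher. The call lay near the threshold and was lost with a pseudocount of 5 (adjusted p 0.122), with no filter (0.0644), with quantile normalization (0.110), with library quality weights (0.595) and with only these 2 groups in the fit (0.187). It was also lost without any 1 of the 3 MDZ 8w libraries (0.0802 to 0.0895) and without RUN MDZ 8w replicate 1 (0.0901) or 2 (0.0624). Between MDZ 8w and Control 8w it was not called (adjusted p 0.0592 by limma), though it was with a pseudocount of 0.1 (0.00855), with Control 8w replicates 2 and 3 kept apart (0.0162), with only these 2 groups in the fit (0.0319), and without Control 8w replicate 1 (0.0446) or RUN MDZ 8w replicate 2 (0.0291) or 3 (0.0476). The fitted difference of Nrgn from Control 8w was 3.61 ± 0.89 (SE) for MDZ 8w and 3.47 ± 0.89 for RUN MDZ 8w. Over the other settings, pseudocounts included and no replicate left out, these ran from 1.71 to 6.81 and from 1.69 to 6.62. MDZ 8w and RUN MDZ 8w overlapped (-0.14 ± 0.79, SE).

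Other genes of mature neurons had unlike levels in Control 8w. Camk2a and Nefl were also at 0 in all 3 Control 8w libraries and at 1.68 to 8.60 and 2.68 to 6.29 TPM in MDZ 8w. Rbfox3, Snap25, Syp and Gria2 were above 100 TPM in every Control 8w library. The 13 mature neuron markers summed to 1064 to 1276 TPM in Control 8w, 894 to 1061 TPM in MDZ 8w and 996 to 1049 TPM in RUN MDZ 8w, a direction opposite to that of Nrgn. The part of detection in the Control 8w zeros was not tested.

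Calb2 was at 874, 527 and 580 TPM in Control 8w, 412, 434 and 532 TPM in MDZ 8w, and 645, 676 and 658 TPM in RUN MDZ 8w. Taken one by one, Control 8w replicate 2 lay just below the highest MDZ 8w library. With Control replicates 2 and 3 averaged, MDZ 8w was lower than both Control samples, by 0.61 ± 0.22 (SE) on log2(TPM + 1), with an adjusted p of 0.154 by limma. The difference shrank to -0.28 without Control 8w replicate 1, the highest Control library. Between these groups 5.13% of genes were called, none of the 5 tested here, and 11.3% of genes did not overlap in that direction. Calb2 and Nrgn had an unadjusted p under 0.05. The median of all genes lay at 0.36 in this comparison and at 0.18 after quantile normalization, so Calb2 lay below a general upward shift. RUN MDZ 8w was higher than MDZ 8w in all 3 libraries, by 0.53 ± 0.19, with an adjusted p of 0.408 by limma. That comparison had 0.157% of genes called, none of the 5 among them and only Calb2 with an unadjusted p under 0.05, and 14.4% of genes were higher without overlap. RUN MDZ 8w and Control 8w overlapped (-0.08 ± 0.22, adjusted p 0.835 by limma).

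Neuroblast markers followed Calb2 in the first of these differences and not in the second. The 12 markers summed to 6710 to 6961 TPM in Control 8w and to 3943 to 5725 TPM in MDZ 8w, all lower. In RUN MDZ 8w they summed to 3548 to 4077 TPM, overlapping the lowest MDZ 8w library, while all 3 libraries there held more Calb2. Eomes, a gene of intermediate progenitors, was at 400 to 601, 263 to 371 and 175 to 205 TPM in the 3 groups. The 10 pericyte and smooth muscle markers summed to 2490 to 4150, 928 to 1558 and 2483 to 3583 TPM. Vtn made up most of the Control 8w sum, with means of 2190, 680 and 1267 TPM, while 8 of the 10 had their highest mean in RUN MDZ 8w, such as Rgs5 (369, 178 and 755 TPM) and Acta2 (54.9, 23.4 and 165 TPM). Radial glia markers were at 2558 to 2753, 3894 to 5577 and 3444 to 3879 TPM. The 9 GABA interneuron markers summed to 186, 52.6 and 49.5 TPM in Control 8w replicates 1, 2 and 3. They summed to 103 to 234 TPM in MDZ 8w and 64.7 to 176 TPM in RUN MDZ 8w, and the groups overlapped. The part of any of these cell types in the Calb2 values was not tested.

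Dcn was at 18.6, 0 and 0 TPM in Control 8w, 4.24, 1.02 and 5.50 TPM in MDZ 8w, and 6.98, 18.7 and 15.3 TPM in RUN MDZ 8w. The running group was higher than MDZ 8w in all 3 libraries, by 1.74 ± 1.09 (SE), with an adjusted p of 0.719 by limma. In that comparison 14.4% of the genes tested were higher without overlap. Against Control 8w the running group overlapped (1.63 ± 1.22, adjusted p 0.400 by limma), since Control replicate 1 lay within the range of the running libraries. Without that library Dcn was called as higher there (adjusted p 0.0146), and 2 of the 5 tested genes were then called in place of 1. The difference between MDZ 8w and Control 8w (-0.11 ± 1.22) likewise rests on that library, and is 2.04 without it (adjusted p 0.135).

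Fibroblast genes varied with Dcn only in part. Lum was at 36.1, 0 and 0 TPM in the same Control 8w libraries, and Col1a2 at 15.3, 3.78 and 2.70 TPM. In these libraries Slc6a13, at 0, 21.1 and 20.5 TPM, and Igf2, at 72.6, 107 and 112 TPM, went the other way, and Col3a1 stayed at 6.26 to 8.14 TPM. In RUN MDZ 8w Lum was at 6.24, 0 and 0 TPM, where Dcn was highest in the last 2 libraries. In RUN MDZ 8w Col1a2 was at 19.4 to 35.2 TPM and Ogn, another small proteoglycan, at 7.27 to 14.3 TPM, against 3.61 to 10.2 and 1.03 to 4.72 TPM in MDZ 8w. The 10 fibroblast markers summed to 265 to 478 TPM in Control 8w, 167 to 673 TPM in MDZ 8w and 401 to 1254 TPM in RUN MDZ 8w, with Pdgfra making up the most, and Col6a1, Col6a2 and Ogn were at 0 in all Control 8w libraries. The part of fibroblasts in the Dcn values was not tested.

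**Figure D4:**
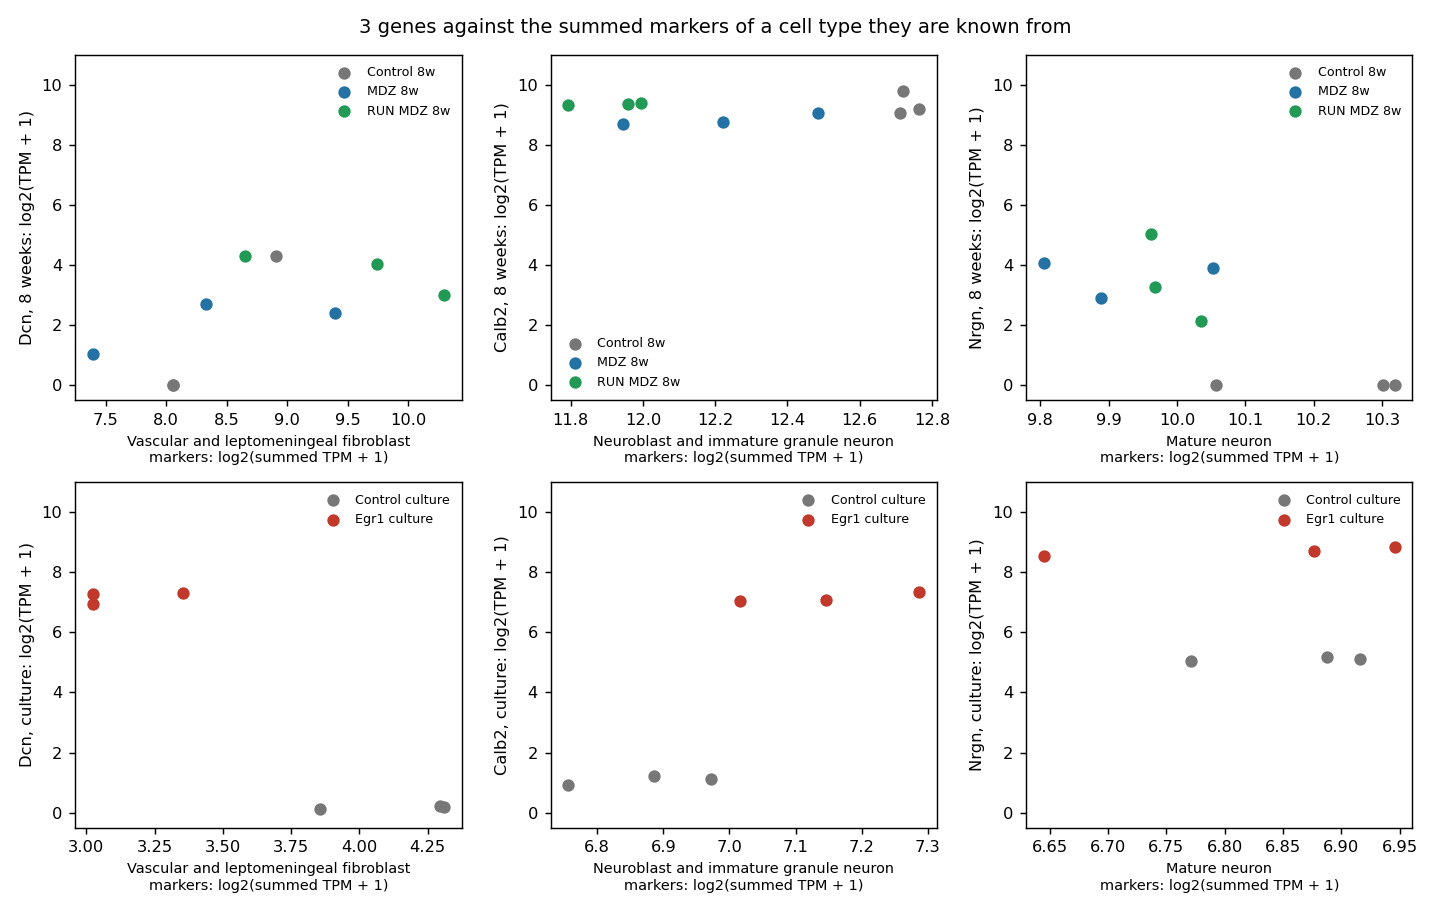
Dcn, Calb2 and Nrgn in each library, as log2(TPM + 1), against the summed TPM of the markers of a cell type each is known from, on a log2 scale, at 8 weeks in the upper row and in culture in the lower row; 2 grey points coincide for Dcn at 8 weeks. In culture the red Egr1 points are separated from the grey points in the level of the gene in all 3 panels, while on the horizontal axis they lie lower for the fibroblast markers, higher for the neuroblast markers and among the grey points for the mature neuron markers.

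The remaining genes were at or near 0 at 8 weeks. Fam180a was at 0 in all Control 8w libraries, at 0.586, 0 and 1.33 TPM in MDZ 8w and at 0.0951, 4.13 and 3.98 TPM in RUN MDZ 8w. As for Dcn, the last 2 running libraries were the highest, and no difference passed the test (adjusted p 0.238 against Control 8w and 0.791 against MDZ 8w by limma). Clec18a was above 0 in 1 library only, RUN MDZ 8w replicate 3, at 8.78 TPM. Trh was at 0.0809, 1.40 and 1.15 TPM in the 3 MDZ 8w libraries and at 0 in all Control 8w and RUN MDZ 8w libraries. The lack of overlap occurred in 24.3% of genes above 0 for MDZ 8w over Control 8w and in 8.88% for RUN MDZ 8w under MDZ 8w, and two-sided exact permutation tests gave p = 0.2 and p = 0.1, the second being the smallest that 3 against 3 allows. Tnnc1 was at 0.637, 0 and 2.68 TPM in MDZ 8w and at 0 elsewhere. Without a known depth at 8 weeks, a 0 sets no upper limit there.

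The families and partners of the 7 genes were also followed in the sorted cells. At P10 and between RUN MDZ 8w and MDZ 8w no gene of these lists was called by limma. Between RUN MDZ 8w and Control 8w, where 9.41% of all genes were called as higher and 1.9% as lower, 3 of 11 decorin partners, 4 of 14 calmodulin genes, 3 of 12 sarcomere genes and 0 of 18 EF-hand genes were called, all as higher. The vascular receptor gene Kdr was at 52.7 ± 5.97 against 8.64 ± 3.91 TPM (SD, n = 3 against 2), and Ogn, the 1 of 10 small proteoglycans called, at 11.4 ± 3.66 TPM against 0. The 10 endothelial markers, of which Kdr is 1, summed to 495 to 610 TPM in Control 8w and 1072 to 1442 TPM in RUN MDZ 8w, and their part in the Kdr values was not tested. Cabp1, which encodes a calcium-binding protein related to calmodulin, was at 43.9 ± 19.0 against 0.196 ± 0.277 TPM, and Camk2a, a kinase that calmodulin activates, at 8.76 ± 1.36 TPM against 0.

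Tnni3, the cardiac partner of Tnnc1, was at 17.0 ± 4.20 against 0.0896 ± 0.127 TPM in the same comparison, and Tpm2, a tropomyosin gene, at 22.9 ± 1.82 against 2.61 ± 3.57 TPM. Of 15 neuropeptide and granin genes 2 were called as higher (Gal and Pomc, both at 0 in Control 8w) and 1 as lower (Chga, 84.4 ± 7.15 against 178 ± 15.9 TPM). Of 10 genes that process or receive the Trh peptide, Prcp and Cpe were higher, with Cpe, a carboxypeptidase of peptide precursors, at 2140 ± 51.6 against 1178 ± 119 TPM. In the lectin and CAP families 2 of 10 were higher (Pi16 and Crispld2), in the Egr and Nab group 0 of 5 were called, and of 29 Egr1 targets 5 were higher and 2 lower, among them Pdgfa (59.4 ± 30.1 TPM against 0) and Gadd45b (21.9 ± 4.52 against 110 ± 22.5 TPM). None of these list genes was called with library quality weights or with only these 2 groups in the fit, and many rest on a Control 8w value at or near 0.

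Between MDZ 8w and Control 8w, where 5.13% of all genes were called, fewer list genes passed. Bgn and Ecm2, small proteoglycans like Dcn, were called as lower, at 63.7 ± 18.1 against 212 ± 33.0 and 31.0 ± 1.10 against 71.6 ± 5.45 TPM. Cabp1, Myh6, Tnni3, Prcp, Arc and Pdgfa were called as higher, each at or near 0 in Control 8w, and Psenen as lower. None of these calls held with library quality weights.

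**Figure D5:**
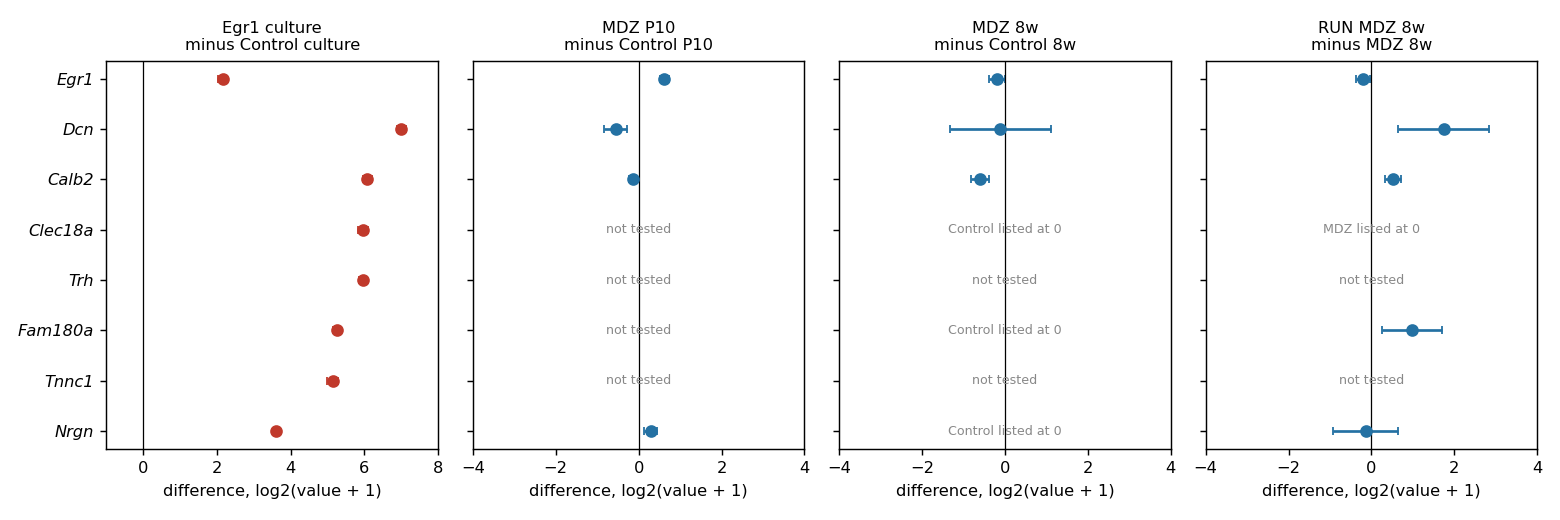
Difference between groups on log2(value + 1) for Egr1 and the 7 genes in 4 comparisons, with bars of 1 standard error from the limma fit; the culture panel has its own axis range, and genes below the filter or with a group at 0 are named without a point. The 7 genes lie between 3.59 and 7.01 in culture, while in the sorted cells the points drawn lie between -0.61 and 1.74. Nrgn in MDZ 8w minus Control 8w, fitted at 3.61, is among those not drawn, since Control 8w is at 0.

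Between the culture and the sorted cells the order of the 7 genes was different. Calb2 was the highest of the 7 in each of the 5 sorted groups, with means of 70.0 ± 5.96 and 63.6 ± 7.07 FPKM (SD) in Control P10 and MDZ P10 and of 714 ± 226, 459 ± 63.9 and 660 ± 15.5 TPM at 8 weeks, whereas Nrgn was the highest in both culture groups. Nrgn and Dcn came next and lay within each other's spread in Control P10 and RUN MDZ 8w, while Nrgn was the higher in MDZ P10 and MDZ 8w and was at 0 in Control 8w. Clec18a and Tnnc1, at 84.5 and 85.1 TPM in the Egr1 cultures, had means of at most 2.93 and 1.11 TPM in the 8-week groups and of at most 0.0610 and 0.196 FPKM at P10.

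Over the 14 sorted samples, centred within each age, the Pearson r with Egr1 of the 3 genes that passed the filter at both ages was -0.11 for Dcn, 0.06 for Calb2 and -0.23 for Nrgn. The ages differed: over the 6 P10 libraries r was -0.74 for Dcn, -0.42 for Calb2 and 0.44 for Nrgn, and over the 8 samples at 8 weeks it was 0.08, 0.29 and -0.44. Dcn and Calb2 had an r of 0.65 with each other. Among 12850 candidate genes the values most like Dcn were those of Wfs1, St5 and Desi1 (r from 0.94 to 0.96), those most like Calb2 were Prrt1, Stard8 and Abcc9 (0.94), and those most like Nrgn were Fam43a, Impa2 and E130317F20Rik (0.97 to 0.98). The 8-week samples carried these values, with r of 0.96 to 0.98 there. At P10 the r of the same 9 genes was lower, down to 0.48 for Wfs1 with Dcn, 0.65 for Prrt1 with Calb2, and 0.53 for Impa2 and -0.12 for E130317F20Rik with Nrgn. Abcc9 is also in the pericyte list. These are descriptions: the samples share the many Control 8w zeros, and the highest of so many values of r is high by selection.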

How the data were processed

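RNA was sequenced in 21 libraries, and the 10 other samples listed were not analysed here. Each library has 1 file. The values deposited for P10 were taken as FPKM, and those deposited for 8 weeks and culture as TPM. The labels give no unit, so this was judged from the totals: each 8-week and culture library sums to about 1000000, and the P10 libraries to 241508 to 252344. Per the labels' protocols, mRNA was taken directly from cells with a bead kit and made into directional libraries. The submitters' processing notes name mm10, TopHat, Bowtie2 and DESeq2, with neither role nor version. The sources used here do not say which program or annotation produced the values, or whether strand or filters were applied. Gene names number 24062 in the files of sorted cells and 24322 in those of culture.

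Values were tested on log2(value + 1) with limma 3.58.1 (trend) in R 4.3.3, over the genes whose mean in the fit reached 1, with Benjamini-Hochberg adjustment, and called at an adjusted p below 0.05. P10, 8-week (3 groups with 1 spread) and culture libraries were fitted apart. Single genes under the filter had exact permutation tests. Other tables were made with Python 3.11.15. The test was checked on simulated data. The median-of-ratios and quantile alternatives, library quality weights, other pseudocounts, no filter, a replicate block, Control 8w replicates 2 and 3 kept apart, only the 2 groups compared, and leaving out each replicate were also run.

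At P10 and in culture, values below 0.3 are spaced by whole fragments, which gives relative depth. The shallowest P10 library, Control P10 replicate 2, had 0.571 of the depth of the deepest, and the culture libraries 0.899 or more; 8-week depth is unknown.

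The 7 genes and the lists were chosen with earlier results of these data known. Named genes are the 7, Egr1, the 5 next largest differences in culture (1 is not reported here) and up to 2 called genes of each list. List genes that did not pass are named only in the background or as cell type markers. Called list genes beyond those 2 were named after their values were seen. Deviations of same-numbered libraries from their group means had r from -0.08 to 0.13, and in no comparison were all 3 above 0.1. The numbers were therefore not used as pairs in the main fits. Deviations from means of only 3 libraries cannot exclude a pairing. Promoters and loci are from RefSeq (GRCm38.p6), with 5 and 7 of the 7 genes matched by symbol.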

Additional observations from a re-analysis of the deposited data

How the results depend on the processing

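The 7 genes were above the Control cultures under every setting run. Their median difference of 5.97 was 7.59 with a pseudocount of 0.1, 3.86 with 5, and 5.88 to 6.07 with 1 library left out, since the pseudocount sets the scale of a gene near 0. In the sorted cells the number of the 7 called stayed at 0 for MDZ P10 against Control P10 and RUN MDZ 8w against MDZ 8w. For MDZ 8w against Control 8w it was 0, and 1 with a pseudocount of 0.1, with Control 8w replicates 2 and 3 kept apart, alone or with a replicate block, and with only 2 groups (0 to 1 with a library left out). For RUN MDZ 8w against Control 8w it was 1, and 0 with a pseudocount of 5, no filter, quantile normalization, quality weights and only 2 groups (0 to 2 with a library left out). The Egr1 motif was in 0 windows, or 3 in its looser form.

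At 8 weeks the block was run only together with replicates 2 and 3 kept apart, so its own part is the step from the count for kept apart. Over all genes, calls for MDZ P10 against Control P10 numbered 1, and 2 with a pseudocount of 5, 0 with median of ratios, 4 with quantile normalization, 5 with weights, 0 with the block and 0 to 101 with a library left out. For MDZ 8w against Control 8w the 783 became 1410 with a pseudocount of 0.1, 461 with 5, 406 with quantile normalization, 19 with weights, 1787 with replicates kept apart, 1227 with these kept apart and the block, and 207 to 2928 with a library left out. The 24 for RUN MDZ 8w against MDZ 8w became 432 with weights, 122 with replicates kept apart, 14 with these kept apart and the block, 360 with only 2 groups and 0 to 275 with a library left out. For RUN MDZ 8w against Control 8w the 1727 became 862 with quantile normalization, 0 with weights (1531 at an unadjusted p under 0.05), 2904 with replicates kept apart, 2595 with these kept apart and the block, 0 with only 2 groups (2742 unadjusted) and 910 to 3952 with a library left out. In culture the 5486 calls stayed within 1.5 times, at 4646 with the block. The highest left-out counts came without Control 8w replicate 1 at 8 weeks and without Control P10 replicate 2 at P10. The causes were not tested.

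Uncalled differences that changed sign were Dcn in MDZ 8w against Control 8w (1.14 with a pseudocount of 0.1, 0.0036 with weights, 0.61 with replicates kept apart, without or with the block, 2.04 without Control 8w replicate 1, 0.40 without MDZ 8w replicate 2; -0.44 to 2.04 over all left out), Egr1 there (0.026 with quantile normalization), Calb2 in RUN MDZ 8w against Control 8w (0.085 with quantile normalization, 0.034 with replicates kept apart, without or with the block, -0.11 to 0.25 with a library left out, the highest without Control 8w replicate 1), and Nrgn in RUN MDZ 8w against MDZ 8w (0.09 without MDZ 8w replicate 2, 0.54 without RUN MDZ 8w replicate 3; -0.92 to 0.54 over all left out). In MDZ 8w against Control 8w Nrgn had an adjusted p of 0.0162 with replicates kept apart and 0.0323 with the block as well. With few libraries a group, small differences at 8 weeks cannot be resolved, and 0 there cannot be told from too little depth.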
